A study of Mus musculus with 6 samples.

Results

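The genes described here are 10 regulators of interferon and cytokine signalling in transplanted mouse hearts: the interferon regulatory factors Irf1, Irf7, Irf8 and Irf9, the transcription factors Stat2, Stat3 and Stat4, the kinase Jak2 and the feedback inhibitors Socs1 and Socs3. They were taken by name, and every probe set assigned to one of them was used: 17 probe sets for 10 of 10 genes, out of 22626 probe sets and 12393 genes. Of the 10 genes, 5 had 1 probe set, 3 had 2 and 2 had 3.

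Cytokines bind receptors that carry Janus kinases (JAKs), which phosphorylate STAT proteins, and these move to the nucleus as dimers. Interferon-gamma acts through GAS elements and induces Irf1, and type I interferon acts through ISGF3, a complex that holds STAT2 and IRF9, on ISRE elements. The SOCS genes are themselves switched on by STATs and their products damp the same receptors, SOCS1 mainly those of interferon and SOCS3 mainly those that use gp130. In a rejected graft, T cells and NK cells are the main source of interferon-gamma, and both infiltrating and resident cells respond to it.

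Total RNA of the grafts was measured on 6 Affymetrix arrays, 1 for each group. The CsA array came from an allograft of mice given cyclosporin A, a calcineurin inhibitor, at 15 mg/kg every 24 h. The NIL array came from an allograft under N-imino ethyl-L-lysine, an inhibitor of inducible nitric oxide synthase, at 5 mg/kg every 8 h, and the BH4 and ABH4 arrays from allografts under tetrahydrobiopterin, the cofactor of nitric oxide synthases, and its 4-amino analog, an antagonist, each at 50 mg/kg every 8 h. The untreated allograft and the untreated syngraft, a graft without donor-recipient difference, were the controls. The labels name no strain, sex, age, day of removal or pooling of animals, so differences between single grafts or strains cannot be told apart from those of the groups. With 1 array per group no spread exists and nothing below was tested: each difference compares 2 arrays, and no order of levels can be set against an error.

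Values are probe set signals, rescaled to a common array median, and the floor is the signal of 34.8 below which a signal counts as undetected. Median deposited signals lay between 77.6 and 88.5, and the ratios of 3' to 5' control probe sets between 1.04 and 1.13 for beta-actin and between 0.788 and 0.876 for Gapdh. All 12 cardiomyocyte markers were above the floor on every array. The BH4 array stood apart in salivary secretion genes, whose signals summed to 15505 over 7 genes, against 179 to 492 on the other 5 arrays. Every BH4 value below rests on that array, and the part of this material in the values was not tested.

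Every one of the 10 regulators had a higher signal in the untreated allograft than in the syngraft, and 8 were at least 2-fold higher, against 6.87% of all genes. The median log2 difference of the 10 was 1.63, against 0.00 for all genes. None was at least 2-fold lower, against 4.81% of all genes. All 17 probe sets were higher in the allograft and 15 of them at least 2-fold. Stat4, under the floor in the syngraft and dim in the allograft, has only a lower bound and cannot be ranked. Among the other 9 the largest differences were those of Socs1, Irf1, Irf7 and Irf8, and the smallest was that of Jak2.

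**Figure D1:**
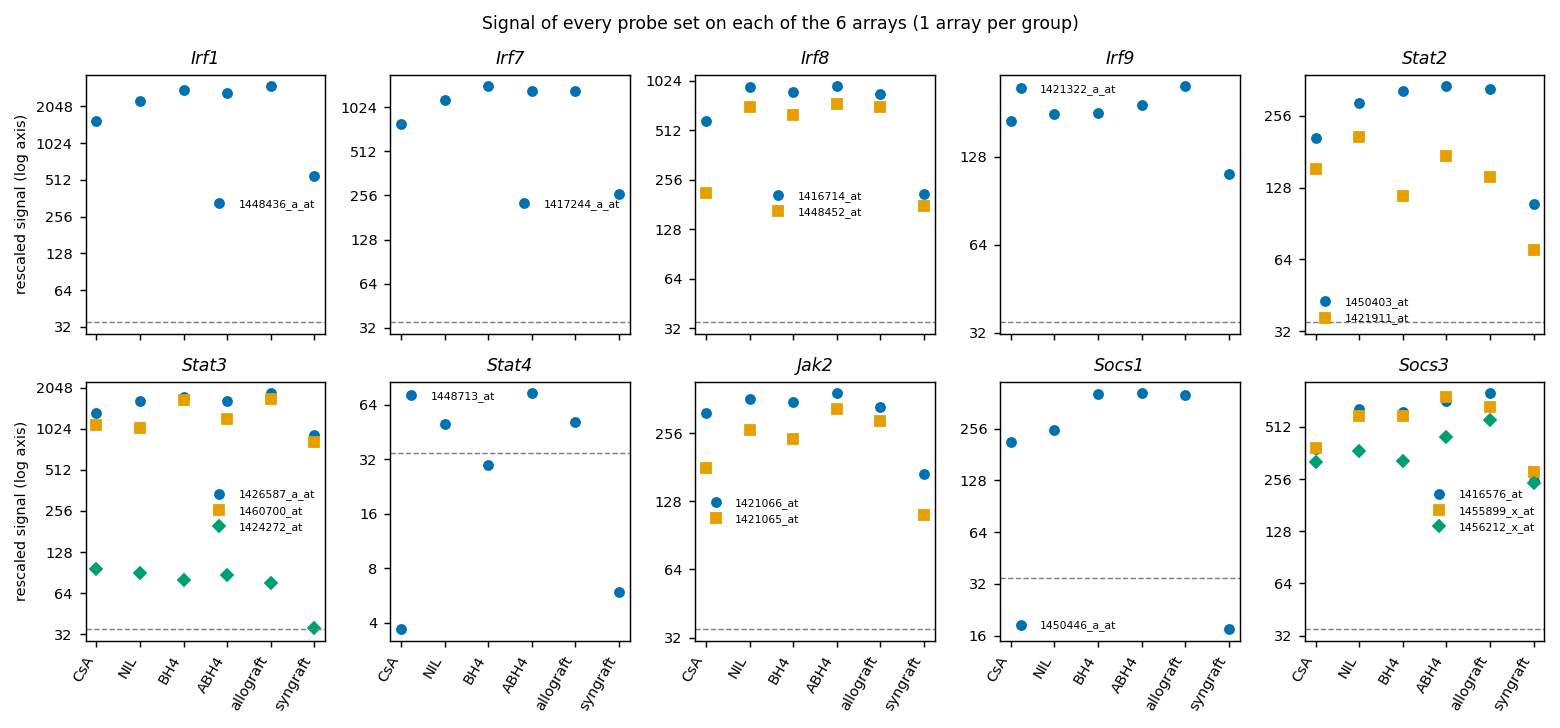
Rescaled signal (y axis, logarithmic, its own range in each panel) of each of the 17 probe sets of the 10 genes on the 6 arrays (x axis), 1 array per group; marker shapes and colours stand for probe sets and the dashed line is the floor of 34.8. The syngraft has the lowest signal in all panels but that of Stat4, where the CsA array is lower and both lie under the floor.

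Irf1, the first-wave transcription factor of the interferon-gamma response, had signals of 1553 in the CsA, 2288 in the NIL, 2789 in the BH4 and 2621 in the ABH4 allograft, 2994 in the untreated allograft and 551 in the syngraft. The 5 allografts were all above the syngraft, and the CsA allograft was the lowest of them. The untreated allograft was 5.43-fold above the syngraft.

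Irf7, the amplifier of type I interferon production and itself an ISGF3 target, had signals of 784 in the CsA, 1150.1 in the NIL, 1423 in the BH4 and 1325 in the ABH4 allograft, 1332 in the untreated allograft and 261 in the syngraft. It followed the order of Irf1 at the low end, with the CsA allograft below the other 4, and was 5.09-fold higher in the untreated allograft than in the syngraft. Irf7 and Irf1 were among each other's 3 most similar genes, as described below.

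Irf8, a factor of the macrophage and dendritic cell lineages that interferon-gamma also induces, was measured by 2 probe sets annotated with the same accession. The brighter had signals of 579 in the CsA, 934 in the NIL, 878 in the BH4 and 944 in the ABH4 allograft, 845 in the untreated allograft and 209 in the syngraft. The dimmer had 213 in the CsA, 711 in the NIL, 635 in the BH4 and 734 in the ABH4 allograft, 712 in the untreated allograft and 177 in the syngraft. In the untreated allograft the probe sets agree, at 4.05-fold and 4.02-fold above the syngraft, while on the CsA array the first stayed well above the syngraft and the second close to it.

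Irf9, the DNA-binding subunit of ISGF3, had a narrower range, with signals of 170.3 in the CsA, 179.8 in the NIL, 182 in the BH4 and 193 in the ABH4 allograft, 223 in the untreated allograft and 112 in the syngraft. All 4 treated allografts lay between the untreated allograft and the syngraft. The untreated allograft was 2.0002-fold above the syngraft, just inside the 2-fold limit.

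Stat2, the STAT subunit of ISGF3, had signals of 206 in the CsA, 289 in the NIL, 326 in the BH4 and 341 in the ABH4 allograft, 331 in the untreated allograft and 109.5 in the syngraft by its brighter probe set. That was 3.03-fold higher in the untreated allograft than in the syngraft. The dimmer probe set gave 153 in the CsA, 208 in the NIL, 118 in the BH4 and 174 in the ABH4 allograft, 142 in the untreated allograft and 70.1 in the syngraft, or 2.03-fold. The syngraft was the lowest array by both, and the order of the allografts differed between them.

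Stat3, the main STAT of interleukin-6 type cytokines, had signals of 1327 in the CsA, 1619 in the NIL, 1761 in the BH4 and 1646 in the ABH4 allograft, 1857 in the untreated allograft and 928 in the syngraft by its brightest probe set. The untreated allograft was 2.002-fold above the syngraft by that probe set, 2.08-fold by the next brightest and 2.12-fold by the dimmest, so that the 3 were close. Within the allografts the dimmest probe set ran the other way, at 96.6 in the CsA and 75.6 in the untreated allograft.

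Stat4, which carries interleukin-12 signals in T and NK cells, was dim throughout. Its signals were 3.67 in the CsA, 50.3 in the NIL, 29.7 in the BH4 and 73.8 in the ABH4 allograft, 51.6 in the untreated allograft and 5.93 in the syngraft. It was above the floor on the NIL, ABH4 and untreated allograft arrays and under it on the other 3. The untreated allograft was at least 1.48-fold above the syngraft, a lower bound.

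Jak2, the kinase of the interferon-gamma and many growth factor receptors, had signals of 313 in the CsA, 362 in the NIL, 353 in the BH4 and 384 in the ABH4 allograft, 335 in the untreated allograft and 169 in the syngraft by its brighter probe set. By that probe set the 5 allografts lay close together and all above the syngraft. The dimmer probe set gave 180 in the CsA, 264 in the NIL, 241 in the BH4 and 326 in the ABH4 allograft. It gave 290 in the untreated allograft and 112 in the syngraft, so the allografts lay further apart. The untreated allograft was 1.98-fold above the syngraft by the brighter probe set, just outside the 2-fold limit, and 2.60-fold by the dimmer.

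Socs1, the inhibitor of the interferon receptors, had signals of 214 in the CsA, 252 in the NIL, 409 in the BH4 and 410.1 in the ABH4 allograft, 403 in the untreated allograft and 17.4, under the floor, in the syngraft. The untreated allograft was at least 11.6-fold above the syngraft, a bound set by the floor. The BH4, ABH4 and untreated allografts were alike in signal, and the CsA and NIL allografts lower.

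Socs3, the inhibitor of gp130 receptors, had signals of 380 in the CsA, 649 in the NIL, 623 in the BH4 and 723 in the ABH4 allograft, 800.1 in the untreated allograft and 251 in the syngraft by its brightest probe set, 3.18-fold higher in the untreated allograft than in the syngraft. The other 2 probe sets, whose suffix marks sequence that may be shared with other transcripts, gave 2.36-fold and 2.30-fold. By all 3 the syngraft was the lowest array and the CsA allograft was below the untreated one.

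In bulk tissue fewer cells of a type and less RNA per cell cannot be told apart. Summed signals of T cell, NK cell and macrophage markers were higher along with these genes. The 11 T cell markers summed to a signal of 2916 in the untreated allograft and 565 in the syngraft, where 8 of the 11, among them Cd3d, Cd3e and Cd3g, were at the floor. The 8 NK and cytotoxic markers summed to 7475 in the untreated allograft and 422 in the syngraft, with Gzmb and Klrd1 at the floor in the syngraft. The 14 macrophage and monocyte markers summed to 19806 in the untreated allograft and 13535 in the syngraft, with none at the floor on either. Of these 14, 6 were at least 2-fold higher and 1 lower, with a median log2 difference of 0.75. The 6 dendritic cell markers summed to 579 in the untreated allograft and 453 in the syngraft, with Cd209a at the floor in the allograft and Ccr7 in the syngraft; their median log2 difference was -0.02, with 1 at least 2-fold higher and 1 lower. Other lists went the opposite way: the 6 neutrophil markers summed to 1016 in the untreated allograft and 1424 in the syngraft, with Cxcr2 and Elane at the floor in the allograft and Cxcr2 in the syngraft. The fibroblast and matrix markers summed to 6183 in the untreated allograft and 32786 in the syngraft, with all 12 at least 2-fold lower and Pdgfra and Tcf21 at the floor in the allograft. The part of any of these cells in the differences was not tested.

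RefSeq promoter windows on GRCm38.p6, 250 bases before and 50 after a start, were found for all 10 genes, 14 windows in all. They were searched for the letters TTCNNNGAA, the GAS consensus, which reads the same on both strands, and for GAAA, any 2 bases and GAAA again, an ISRE core, on both strands. The GAS letters stood in 3 of the 14 windows, those of Irf1, Irf8 and Socs3, against 8.30% of all 32851 windows. The ISRE letters stood in 3 windows, those of Socs1, Stat2 and Stat4, against 3.44% of all windows. No window of the 10 genes held both, and the windows of Irf7, Irf9, Stat3 and Jak2 held neither, which says only that these letters are not there. A match is a description of the sequence and was not tied to binding or to the signals. The 250 bases before the start are shown for the 6 windows with a match, 5' to 3' on the strand of the gene, with each match in capitals.
Irf1: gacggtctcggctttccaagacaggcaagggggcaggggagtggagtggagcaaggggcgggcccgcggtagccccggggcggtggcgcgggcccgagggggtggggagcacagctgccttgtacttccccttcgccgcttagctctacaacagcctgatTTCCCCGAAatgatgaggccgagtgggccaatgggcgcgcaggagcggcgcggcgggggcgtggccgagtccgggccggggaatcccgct
Irf8: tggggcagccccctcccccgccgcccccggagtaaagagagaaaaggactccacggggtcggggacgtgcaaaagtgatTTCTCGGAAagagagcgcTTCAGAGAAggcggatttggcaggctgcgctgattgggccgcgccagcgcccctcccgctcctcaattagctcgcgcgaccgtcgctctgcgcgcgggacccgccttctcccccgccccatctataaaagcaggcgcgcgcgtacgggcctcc
Socs3: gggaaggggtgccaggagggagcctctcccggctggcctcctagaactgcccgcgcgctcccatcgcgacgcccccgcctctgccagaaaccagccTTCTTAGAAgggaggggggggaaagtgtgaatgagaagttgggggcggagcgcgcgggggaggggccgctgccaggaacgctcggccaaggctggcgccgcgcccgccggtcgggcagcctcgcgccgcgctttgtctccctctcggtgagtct
Socs1: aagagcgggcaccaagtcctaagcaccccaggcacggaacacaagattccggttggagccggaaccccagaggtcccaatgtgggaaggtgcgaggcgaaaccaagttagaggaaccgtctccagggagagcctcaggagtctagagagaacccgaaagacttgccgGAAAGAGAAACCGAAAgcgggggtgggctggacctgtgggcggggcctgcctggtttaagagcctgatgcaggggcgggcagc
Stat2: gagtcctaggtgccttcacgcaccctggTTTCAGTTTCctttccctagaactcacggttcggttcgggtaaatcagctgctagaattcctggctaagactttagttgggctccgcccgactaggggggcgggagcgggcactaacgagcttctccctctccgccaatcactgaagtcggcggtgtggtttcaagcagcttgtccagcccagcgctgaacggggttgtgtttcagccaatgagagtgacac
Stat4: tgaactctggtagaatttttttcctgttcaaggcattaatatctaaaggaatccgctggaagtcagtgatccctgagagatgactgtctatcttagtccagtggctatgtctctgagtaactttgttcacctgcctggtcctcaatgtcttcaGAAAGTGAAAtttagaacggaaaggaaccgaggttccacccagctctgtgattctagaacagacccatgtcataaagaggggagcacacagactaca

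The Irf1 window (chr11:53769764-53770013, plus strand) has its GAS match at -90 to -82, counted from the start. The Irf8 window (chr8:120736108-120736357, plus strand) has 2 GAS matches, at -171 to -163 and at -153 to -145. The Socs3 window (chr11:117969367-117969616, minus strand) has 1 at -154 to -146. In the Socs1 window (chr16:10785537-10785786, minus strand) 2 ISRE matches, at -83 to -74 and at -77 to -68, overlap, so that GAAA occurs 3 times in the printed capitals. The Stat2 window (chr10:128270248-128270497, plus strand) has its ISRE match on the opposite strand, at -222 to -213. For Stat4 only the second of its 2 windows (chr1:52007990-52008239, plus strand) has a match, at -97 to -88.

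**Figure D2:**
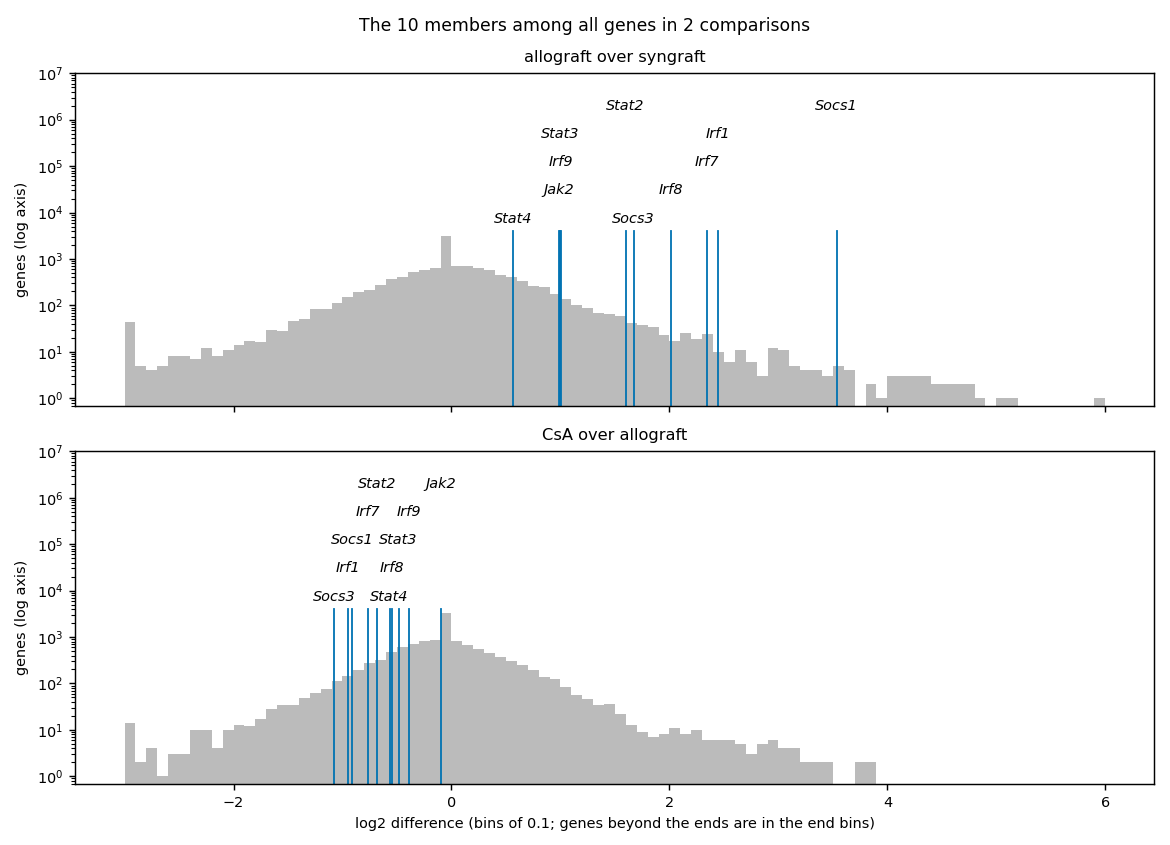
Number of genes (y axis, logarithmic) by log2 difference (x axis, bins of 0.1) over all 12393 genes, with the 10 regulators marked by vertical lines at the values of their brightest probe sets; the peak at 0 holds genes at the floor on both arrays. The 10 lie between 0.57 and 3.53 in the allograft over the syngraft, where Stat4 and Socs1 are lower bounds, and between -1.07 and -0.10 in the CsA over the untreated allograft, where Stat4 is a bound.

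Under CsA all 10 regulators had a lower signal than in the untreated allograft by their brightest probe sets, with a median log2 difference of -0.63 against 0.00 for all genes, although Jak2 turned to 0.09 on the deposited scale and 0.12 after quantile normalization, and Stat4 was at 0.00 with the floor at the 50th percentile. Only Socs3 was called at least 2-fold lower, at 2.11-fold, against 4.06% of all genes. It fell short of 2-fold under both other scalings and by its other 2 probe sets, at 1.72-fold and 1.73-fold. No regulator was at least 2-fold higher, against 3.21% of all genes. At 1.5-fold, 5 of 10 were lower (Socs3, Irf1, Socs1, Irf7 and Stat2), against 12.2% of all genes. Irf7 and Stat2 fell short of 1.5-fold on the deposited scale. Irf1 was 1.93-fold, Socs1 1.88-fold, Irf7 1.70-fold and Stat2 1.61-fold lower.

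Stat4, under the floor with CsA, was at least 1.48-fold lower, a bound that does not say on which side of 1.5-fold or 2-fold it lies. The other 4 lay within 1.5-fold, with Irf8 1.46-fold, Stat3 1.40-fold, Irf9 1.31-fold and Jak2 1.07-fold lower. Other probe sets gave different sizes for several genes. Irf8 was 3.35-fold lower by the dimmer probe set and Jak2 was 1.62-fold lower by its dimmer one. Stat2 was 1.08-fold higher by its dimmer probe set. Stat3 was 1.57-fold lower by its second brightest and 1.28-fold higher by its dimmest probe set. Of all 17 probe sets, 15 were lower with CsA and 2 higher.

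Set against the syngraft, the CsA allograft kept higher signals for most of the group. In that comparison 4 of 10 regulators were at least 2-fold higher, against 2.28% of all genes, and 8 at least 1.5-fold, against 6.83%. None was at least 2-fold lower, against 1.42% of all genes. Socs1 was at least 6.16-fold, Irf7 2.998-fold, Irf1 2.82-fold and Irf8 2.77-fold above the syngraft, the last only 1.20-fold by its other probe set. Stat2 was 1.88-fold, Jak2 1.85-fold, Irf9 1.53-fold, Socs3 1.51-fold and Stat3 1.43-fold higher, and Stat4 was under the floor on both arrays. By other probe sets Stat2 was 2.19-fold, Jak2 1.61-fold, Socs3 1.38-fold and 1.33-fold, and Stat3 1.33-fold and 2.71-fold higher. The counts at 2-fold and 1.5-fold thus depend on the probe set. The comparison shares its CsA array with the one above.

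On the CsA array the T cell markers summed to 620, against 2916 in the untreated allograft, with 5 of 11 at the floor (Cd2, Cd3d, Cd3e, Cd4 and Cd8b1). The NK and cytotoxic markers summed to 1051 with CsA, against 7475 in the untreated allograft, with none of 8 at the floor. The macrophage and monocyte markers summed to 14988 with CsA, against 19806 in the untreated allograft, with none of 14 at the floor. Of these 14, 3 were at least 2-fold lower and 1 higher. The 6 dendritic cell markers summed to 626 with CsA, against 579 in the untreated allograft. Of these 6, 2 were at least 2-fold higher and 0 lower, with Ccr7 at the floor with CsA and Cd209a in the untreated allograft. The fibroblast and matrix markers were higher with CsA, at 28817 against 6183 in the untreated allograft, where Pdgfra and Tcf21 were at the floor. Their part in the lower regulator signals was not tested.

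**Figure D3:**
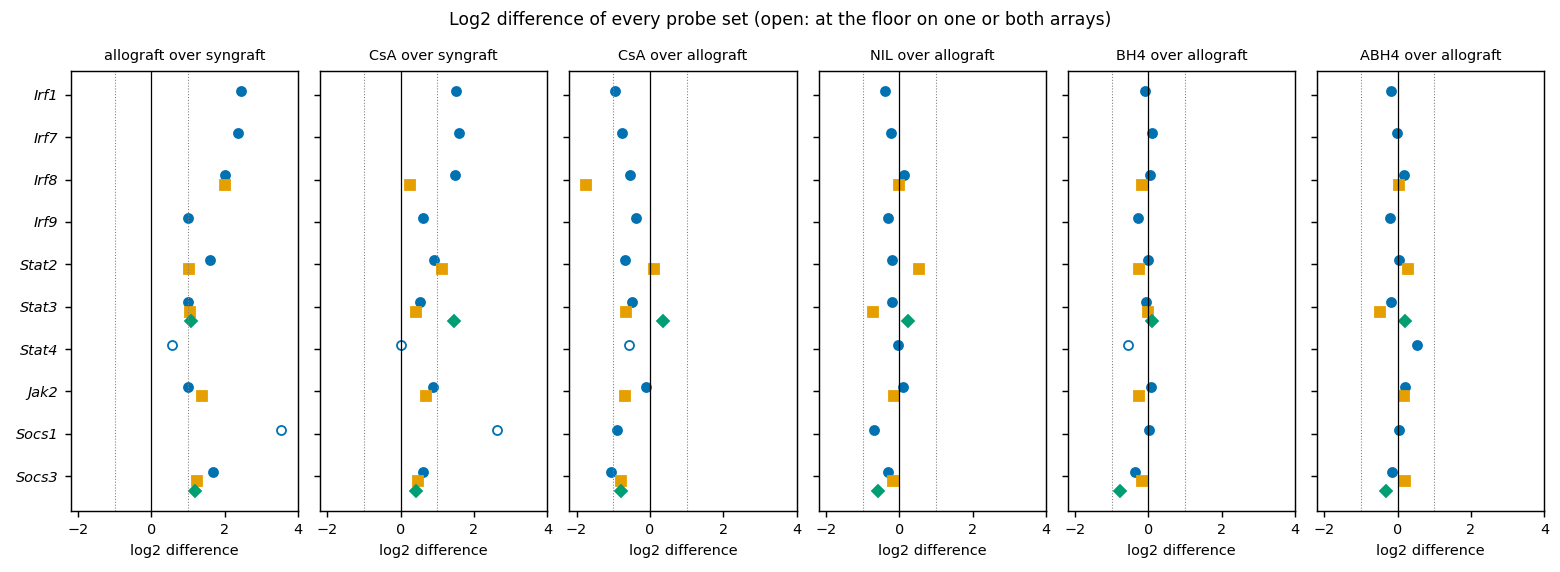
Log2 difference (x axis) of each of the 17 probe sets in 6 comparisons, with dotted lines at 2-fold, shapes and colours for the probe sets of a gene in order of brightness, and open symbols where a signal was under the floor. All values but that of Stat4 with CsA, at 0.00, lie above 0 in the 2 comparisons with the syngraft, and the probe sets of Irf8 lie far apart on the CsA array, at -0.55 and -1.74 over the untreated allograft and at 1.47 and 0.26 over the syngraft.

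NIL left the group close to the untreated allograft, apart from Socs1. None of the 10 differed 2-fold, against 1.33% of all genes higher and 0.791% lower, and the median log2 difference was -0.20 (-0.06 on the deposited scale and after quantile normalization). Socs1 was 1.60-fold lower with NIL, the one regulator past 1.5-fold, where 5.33% of all genes were that much lower. The deposited median of the NIL array lay 0.15 above that of the untreated allograft on the log2 scale. Without rescaling Socs1 fell short of 1.5-fold. It has a single probe set here, with signals of 252 in the NIL and 403 in the untreated allograft. Irf1 was 1.31-fold, Irf9 1.24-fold, Socs3 1.23-fold, Stat2 1.15-fold and Stat3 1.15-fold lower. Irf7 was 1.16-fold lower but turned to 0.02 on the log2 scale after quantile normalization.

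Irf8 was 1.10-fold and Jak2 1.08-fold higher with NIL, and Stat4 was 1.02-fold lower, a sign that turned on the deposited scale. Stat3 was 1.63-fold lower by its second brightest and 1.19-fold higher by its dimmest probe set. By their dimmer probe sets Stat2 was 1.47-fold higher, Jak2 1.10-fold lower and Irf8 1.002-fold lower. The signs of these genes with NIL thus depended on the probe set. Socs3 was 1.49-fold lower by its dimmest and 1.12-fold lower by its remaining probe set. T cell markers summed to 3278 in the NIL and 2916 in the untreated allograft, with Cd4 alone at the floor on each, and NK and cytotoxic markers to 6971 in the NIL and 7475 in the untreated allograft.

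With BH4 no regulator was called at 1.5-fold against the untreated allograft by its brightest probe set, against 4.9% of all genes at least that much higher and 3.35% lower. At 2-fold the shares of all genes were 1.54% higher and 0.42% lower. The median log2 difference was -0.05. Stat4, under the floor with BH4, was at least 1.48-fold lower and may lie past 1.5-fold. Socs3 was 1.28-fold and Irf9 1.23-fold lower, and Irf1, Irf7, Irf8, Stat2, Stat3, Jak2 and Socs1 lay within 1.07-fold in either direction. Socs3 was 1.71-fold lower by its dimmest and 1.13-fold lower by its remaining probe set. By their dimmer probe sets Stat2 and Jak2 were each 1.20-fold lower and Irf8 1.12-fold lower.

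With ABH4 none differed 1.5-fold either, against 3.22% of all genes higher and 2.49% lower (0.694% and 0.282% at 2-fold), and the median log2 difference was 0.01. Stat4 was 1.43-fold higher, with signals of 73.8 in the ABH4 and 51.6 in the untreated allograft. Jak2 was 1.14-fold and Irf8 1.12-fold higher, while Irf9 was 1.16-fold, Irf1 1.14-fold, Stat3 1.13-fold and Socs3 1.11-fold lower. Irf7, Stat2 and Socs1 lay within 1.03-fold. These values are those of the brightest probe sets. By other probe sets Stat2 was 1.22-fold higher, Socs3 1.14-fold higher or 1.25-fold lower, and Stat3 1.41-fold lower or 1.15-fold higher. Jak2 and Irf8 were 1.12-fold and 1.03-fold higher by their dimmer ones.

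ABH4 and BH4, which differ in that ABH4 carries a 4-amino group in place of the oxo group of BH4, were given at the same dose and interval, the only matched pair of the series, so 1 pair of compounds was compared. By their brightest probe sets 9 of the 10 regulators lay within 1.16-fold with ABH4 and BH4. Other probe sets gave wider differences: with ABH4 Stat2 was 1.47-fold, Socs3 1.37-fold and 1.28-fold, Jak2 1.35-fold and Irf8 1.16-fold higher, and Stat3 was 1.38-fold lower by one and 1.07-fold higher by another. Stat4 stood apart, at least 2.12-fold higher with ABH4, against 0.46% of all genes at least 2-fold higher and 0.96% lower. Its signals, 73.8 with ABH4 and 29.7, under the floor, with BH4, are both dim, and with the floor at the 50th percentile the difference was 0.00. T cell markers summed to 3233 with ABH4 and 2251 with BH4, and NK and cytotoxic markers to 7567 with ABH4 and 5298 with BH4, and their part in the Stat4 difference was not tested. No interval can be given for any of the 10 differences, so the values do not show that the compounds act alike.

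By the brightest probe sets of these genes, the allografts under the 3 other agents stood nearer to the untreated allograft than to the syngraft. The exception was Stat4 with BH4, under the floor as in the syngraft. By its second brightest probe set Stat3 with NIL was 1.28-fold above the syngraft and 1.63-fold below the untreated allograft. By its dimmest Socs3 with BH4 was 1.34-fold above the syngraft and 1.71-fold below the untreated allograft. With NIL 7 of 10 were at least 2-fold above the syngraft, against 5.95% of all genes, and 0 below, against 4.45%, led by Socs1 (at least 7.25-fold), Irf8 (4.47-fold) and Irf7 (4.398-fold). With BH4 it was also 7, against 6.15%, and 0 below, against 3.5%, with Socs1 at least 11.8-fold, Irf7 5.44-fold and Irf1 5.06-fold higher. With ABH4 it was 8, against 7.07%, and 0 below, against 4.58%, with Socs1 at least 11.8-fold, Irf7 5.07-fold and Irf1 4.76-fold higher. Stat3 and Irf9 were under 2-fold in all 3, at 1.74-fold and 1.61-fold with NIL, 1.90-fold and 1.63-fold with BH4 and 1.77-fold and 1.73-fold with ABH4. All of these share the 1 syngraft array.

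Ifng and Il6 were the ligands that differed most, and most of the list was dim or alike (median log2 difference 0.01 in the untreated allograft over the syngraft and -0.01 with CsA over the untreated allograft). Of 18 measured ligand genes the untreated allograft exceeded the syngraft at least 2-fold in 4 and was that much lower in 0: Ifng (at least 16.8-fold), Il6 (5.32-fold), Il15 (3.11-fold) and Il10 (2.20-fold). With CsA 3 of the 18 were at least 2-fold lower than in the untreated allograft and 0 higher, namely Ifng (5.72-fold), Il6 (5.21-fold) and Il10 (2.04-fold), and Ifng stayed at least 2.94-fold above the syngraft. The signals of Ifng were 102 in the CsA, 484 in the NIL, 400.0 in the BH4 and 738 in the ABH4 allograft, 586 in the untreated allograft and 13.0, under the floor, in the syngraft. Il6, which signals through gp130 and STAT3, was 2.47-fold lower with BH4 and 2.33-fold higher with ABH4 than with BH4. The counts of this and the later lists stand beside these shares of all genes at 2-fold. In the untreated allograft over the syngraft they were 6.87% higher and 4.81% lower, and with CsA over the untreated allograft 3.21% and 4.06%. With NIL, BH4 and ABH4 over the untreated allograft they were 1.33%, 1.54% and 0.694% higher and 0.791%, 0.42% and 0.282% lower. The share at least 2-fold higher with CsA than in the syngraft was 2.28%.

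Among 23 receptors 8 were at least 2-fold higher in the untreated allograft than in the syngraft (median log2 difference 0.72) and 8 at least 2-fold lower with CsA (median -0.67), with 0 in the opposite direction. Il2rb, a chain of the interleukin-2 and interleukin-15 receptors, was at least 11.5-fold higher in the untreated allograft than in the syngraft and 6.56-fold lower with CsA. Il10ra, Csf2rb and Csf2ra were at least 5.04-fold, 4.60-fold and 3.85-fold higher in the untreated allograft, and Il10ra and Csf2rb were 3.72-fold and 4.71-fold lower with CsA.

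Of the other kinases and STATs 6 were measured, and 0 were at least 2-fold higher or lower in the untreated allograft (median 0.68), with Jak3, Stat5b, Stat6 and Stat5a 1.79-fold, 1.69-fold, 1.61-fold and 1.59-fold higher. Among 4 other IRF family members 2 were at least 2-fold higher, Irf2, an antagonist of Irf1 (at least 4.68-fold), and Irf5 (3.17-fold), and 0 lower. Irf4, a lymphocyte factor, was 1.43-fold lower and Irf3, the constitutive sensor-activated factor, 1.10-fold higher. With CsA none of the 4 differed 2-fold, and Irf2 was 1.94-fold and Irf5 1.75-fold lower.

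Among 16 other inhibitors 4 were at least 2-fold higher in the untreated allograft and 0 lower (median 0.20): Usp18, which blocks the type I interferon receptor (5.48-fold), the phosphatases Ptprc (4.96-fold), a pan-leukocyte marker, Ptpn2 (4.14-fold) and Ptpn1 (2.56-fold). With CsA Ptprc, Ptpn2 and Ptpn6 were at least 2-fold lower, at 3.39-fold, 2.50-fold and 2.09-fold. With NIL none of the 16 differed 2-fold, and Usp18 was 1.98-fold lower, with signals of 300.02 in the NIL and 595 in the untreated allograft.

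**Figure D4:**
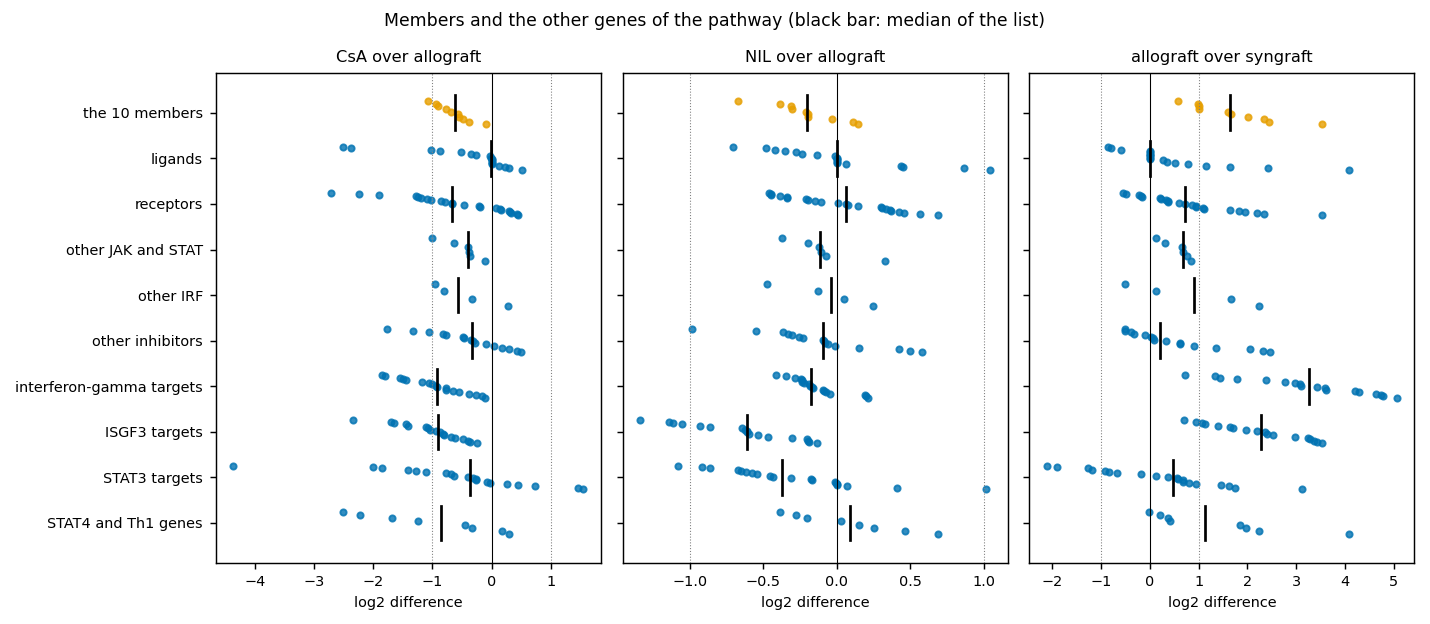
Log2 difference (x axis, its own range in each panel) of the 10 regulators (orange) and of the genes of 9 pathway lists (blue, 1 point per gene, y axis by list) in 3 comparisons, with the median of each list as a black bar and dotted lines at 2-fold. The interferon-gamma targets have the highest median in the allograft over the syngraft, 3.26, and the ISGF3 targets the lowest with NIL, -0.61.

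Of 18 interferon-gamma targets 17 were at least 2-fold higher in the untreated allograft than in the syngraft (median 3.26), led by Cd274 (33.4-fold) and Gbp2 (27.5-fold), with Cxcl9 at 24.8-fold. With CsA 8 of 18 were at least 2-fold lower (median -0.93), among them the immunoproteasome subunits Psmb8, Psmb9 and Psmb10 (3.62-fold, 3.48-fold and 2.93-fold), yet 15 of 18 stayed at least 2-fold above the syngraft. For Cxcl9 the CsA allograft was 1.58-fold below the untreated allograft and 15.7-fold over the syngraft.

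Of 18 ISGF3 targets 16 were at least 2-fold higher in the untreated allograft than in the syngraft (median 2.27), including Bst2 (11.5-fold), Zbp1 (10.7-fold) and Ifit3 (9.46-fold). With CsA 8 of 18 were at least 2-fold lower (median -0.91), among them Oas3 (3.23-fold) and Zbp1 (3.12-fold). With NIL 4 of 18 were at least 2-fold lower and 0 higher (median -0.61): Rsad2 (2.53-fold), Mx2 (at least 2.20-fold), Ifit1 (2.17-fold) and Cmpk2 (2.07-fold). The deposited median of the NIL array lay 0.15 above that of the untreated allograft on the log2 scale. Without rescaling Ifit1 and Cmpk2 fell short of 2-fold with NIL. The subunits Stat2 and Irf9 were 1.15-fold and 1.24-fold lower on the same pair of arrays. With BH4 and with ABH4 1 of 18 was at least 2-fold lower, Mx2, at least 2.20-fold in each, under the floor in both treated allografts.

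Genes known as STAT3 targets differed in both directions in the untreated allograft: of 20, 4 were at least 2-fold higher and 4 lower than in the syngraft (median 0.47), with Il1rn 8.64-fold and Myc 3.36-fold higher and Serpina3n 4.31-fold and Lbp 3.71-fold lower. With CsA 6 of 20 were at least 2-fold lower and 2 higher (median -0.36), and the acute-phase gene Saa3 was 20.6-fold lower while Serpina3n was 2.92-fold higher. The neutrophil genes S100a8 and S100a9 are in this list, and the 6 neutrophil markers, which hold both, summed to 448 in the CsA and 1016 in the untreated allograft, with Cxcr2 and Elane at the floor on both. With BH4 2 of 20 were at least 2-fold higher and 0 lower, Serpina3n (3.10-fold) and Lbp (3.07-fold), and with ABH4 3 of 20, Serpina3n (2.31-fold), Hp (2.25-fold) and Lbp (2.24-fold). With NIL 1 of 20 was at least 2-fold higher, Lbp (2.02-fold), and 1 lower, Lcn2 (2.11-fold). Lbp was also 2.76-fold higher with CsA than in the untreated allograft.

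Of 8 genes of the STAT4 and Th1 program, 4 were at least 2-fold higher in the untreated allograft than in the syngraft and 0 lower (median 1.12): Ifng, Il18r1 (at least 4.69-fold), Cxcr3 (3.90-fold) and Tbx21, which encodes T-bet (at least 3.58-fold). The same 4 were at least 2-fold lower with CsA, where Il18r1, like Stat4, was under the floor. With NIL, BH4 or ABH4 none of the 8 was called at 2-fold against the untreated allograft, and Il12rb2, a receptor chain upstream of Stat4, was 1.61-fold higher with NIL.

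The profiles most like those of the regulators over the 6 arrays were ranked by the root mean square difference of log2 signals, each centred on its own mean, among 966 genes above the floor on all arrays and with an SD of at least 0.5. For Irf1 they were Irf7 (0.071), Uba7 (0.098) and Oasl2 (0.098), and for Irf7 Blvrb (0.054), Irf1 (0.071) and Wars (0.095). For Irf8 they were Lgals3 (0.11), Blvrb (0.14) and Ch25h (0.14), for Stat2 Nasp (0.052), Crem (0.072) and Pml (0.074), and for Socs3 Nbeal2 (0.061), Igsf6 (0.081) and Cd53 (0.082). These values are on the log2 scale and describe 6 arrays with 1 tissue each. They rest on the brightest probe set of each gene. The dimmer probe sets of Irf8 and Stat2 differ from these among the allografts and were not ranked. Irf9, Stat3 and Jak2 varied less than the SD limit, and Stat4 and Socs1 were under the floor on at least 1 array, so none is named for them.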

How the data were processed

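RNA of mouse cardiac grafts was measured on 6 arrays of 1 Affymetrix design with 22690 probe sets. The deposited values are linear signal intensities; the authors had scaled them, since each array's mean without the outer 2% was 200.1, as computed from the file. Software, background correction and build are not given in the sources used here. Control probe sets were left out (22626 remained) and each array was rescaled to the mean of the 6 array medians. Signals under the 30th percentile of all values (34.8) were set to it and log2 was taken, so that a fold against a floored signal is a lower bound. Of the probe sets, 20380 had 1 gene, 691 several and 1555 none in the platform annotation, and the first gave 12393 genes, each with the value of its brightest probe set. A difference counts as called at 2-fold, with 1.5-fold as an alternative. With 1 array per group there is no test and no p-value, and the number of arrays limits the precision. The procedure was tested on simulated data. The 9 pathway and 10 marker lists hold 239 genes, of which 218 were measured.

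The genes, lists and settings were chosen with earlier results of these data known. Named are the 10 genes throughout, up to 4 members per list and comparison with the largest differences, and Ifng, Cxcl9 and Ifit3. Alternatives were the deposited scale, quantile normalization, floors at the 10th and 50th percentile, the mean over probe sets, probe sets without the suffix of shared sequence, and a filter on dim genes. The comparisons of treated allografts with the syngraft were added after seeing the data. Python 3.11.15, numpy 2.4.6 and pandas 2.3.3 were used, and promoter windows came from RefSeq on GRCm38.p6.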

Additional observations from a re-analysis of the deposited data

How the results depend on the processing

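No paired analysis was possible because each group has 1 array. Of the recomputed counts and medians of the 10 genes, 223 moved little and 7 moved beyond their limit (1.5 times for a count). Only 1 regulator was at least 2-fold lower with CsA than in the untreated allograft, and that number was 0 on the deposited scale and after quantile normalization and 2 with the floor at the 10th percentile, where Stat4 joined at -2.99. With the mean over probe sets it was again 1, but Irf8 at -1.15 in place of Socs3 at -0.88. The deposited array medians differed by 0.19 on the log2 scale between the CsA and the untreated allograft, and the median gene by 0.00. At 1.5-fold, 5 genes were lower with CsA, 1 with NIL, and 8 were higher in the CsA allograft than in the syngraft. The counts at 1.5-fold and those of the lists were made on the rescaled signals only. On the deposited scale Irf7 and Stat2 with CsA and Socs1 with NIL fell short of 1.5-fold. The 1 gene at least 2-fold higher with ABH4 than with BH4, Stat4, became 0 with the floor at the 50th percentile. The 8 genes past 2-fold in the untreated allograft over the syngraft were 6 on the deposited scale and after quantile normalization and 9 with the floor at the 10th percentile or the mean over probe sets. Among recomputed differences of single genes 679 moved by less than 1.5-fold and 19 by more, and no difference of 2-fold or more changed sign. Those that moved were Socs1 against the syngraft and Stat4, which depend on the floor (Socs1 in the untreated allograft over the syngraft was 4.53 and 2.27 with floors at the 10th and 50th percentile), and Irf8 with CsA. The background counts moved with the floor: over these settings 618 to 1295 genes passed 2-fold upward in the untreated allograft over the syngraft, and 327 to 896 lower with CsA. Signals near the floor limit what can be said of Stat4.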
